A study of Homo sapiens with 10 samples.

Results

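Calmodulin kinases and calcium sensors turn a rise of calcium in the cytosol into phosphorylation or secretion. Calmodulin is a small protein with EF-hand loops, short calcium-binding stretches; once loaded it switches on calmodulin-dependent kinases. CAMKK2 in turn phosphorylates and activates CAMK1. Visinin-like protein 1 (VSNL1) belongs to the neuronal calcium sensors, which are best known from brain, and CADPS2 primes secretory vesicles for calcium-triggered release. The 9 genes described here are the kinase genes CAMK2D, CAMK2G, CAMK2B, CAMK1 and CAMKK2, the calmodulin genes CALM2 and CALM3, and VSNL1 and CADPS2. They were found by symbol among the 58050 Ensembl identifiers of the deposited table, and all 9 were present.

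HCT116 is a human colorectal carcinoma line. HCT116-WT cells were compared with HCT116-CD276KO cells, in which CD276, an immune checkpoint protein of the B7 family, had been targeted with Cas9 ribonucleoprotein, with 5 cultures of each sequenced as biological replicates. The labels name a scrambled guide as the control of the editing protocol, but do not say whether the sequenced HCT116-WT cultures had received it. All knockout cultures derive from the same single cell clone, so a difference between the groups belongs to this clone against the HCT116-WT cells, and loss of CD276 and the history of the clone cannot be told apart. Values are TPM, a unit of relative transcript abundance scaled for transcript length, so that levels of different genes can be set side by side.

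The members were chosen by symbol, with their TPM in this contrast already known, and CAMK2D, VSNL1 and CADPS2 are among the genes that the study marked in a heat map of the same libraries. Their differences between the groups are therefore given as descriptions, without a test. CD276 itself lay between 38.08 and 53.61 TPM in HCT116-WT and between 4.4 and 7.42 TPM in HCT116-CD276KO, which made a difference of -2.85 in log2 (standard error, SE, 0.13, limma adjusted p-value 1.39e-07). Read depth is not kept in TPM, so counting error has no interval here. In RNA from whole cultures, fewer cells that express a gene and less RNA per cell cannot be told apart. Of the colorectal epithelial markers EPCAM lay between 187.29 and 284.37 TPM and KRT8 between 1474.31 and 2378.88 TPM over the libraries, whereas CDH17, VIL1 and LGALS4 were under 1 TPM in every library. The summed level of the 10 epithelial markers lay between 4292 and 5096 TPM in HCT116-WT and between 3384 and 3858 TPM in HCT116-CD276KO. Of the 7 tested, 6 were called lower by limma at an adjusted p-value under 0.05, beside 4.09% of all genes tested. The other was CDX2, with a log2 fold change of 0.07 (limma adjusted p-value 0.786). The part of these markers in the results below was not tested. Of 15 neuronal and neuroendocrine markers 12 were under 1 TPM in every library, INSM1, ELAVL4 and PCSK1 being listed at 0 throughout; their summed level was 17.7 to 24.92 TPM in HCT116-WT and 12.95 to 18.98 TPM in HCT116-CD276KO. Blood and stromal markers summed to between 4.8 and 9.83 TPM, most of it COL1A1.

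The coding sequences of CALM2 and CALM3 show how alike these genes are and how their reads could be told apart. In the reference transcripts of GENCODE 44 both code for the same 149 residues, with 0 differing residues. The coding sequences still differ at 82 of 447 bases, and their longest shared run is 17 bases. The first of the 4 calcium-binding loops, codons 21 to 32, is shown from each gene, with the bases that differ between the genes in capitals.
CALM2: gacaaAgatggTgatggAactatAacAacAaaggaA
CALM3: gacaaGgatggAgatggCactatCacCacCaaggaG
The 7 positions in capitals change codons but no residue. No 50-base stretch of either gene's reference transcript occurred in a transcript of the other, 50 bases being the length of the reads. Only exact matches were counted. The CALM2 reference transcript shares 8.7% of its 50-base stretches with annotated pseudogenes, mainly CALM2P2, so a part of the CALM2 reads could have been split. The 4 CALM2 pseudogenes in the table summed to between 0.16 and 2.47 TPM, against 724.44 TPM or more for CALM2.

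The CAMK2 genes code for subunits of calmodulin-dependent kinase II, which assemble into large holoenzymes and, once activated, phosphorylate each other on a threonine that keeps the kinase active after calcium has fallen. That codon, number 287 in each of the 3 reference transcripts, is in capitals in the 45 bases around it.
CAMK2D: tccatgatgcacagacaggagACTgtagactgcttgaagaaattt
CAMK2G: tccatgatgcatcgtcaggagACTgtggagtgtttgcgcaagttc
CAMK2B: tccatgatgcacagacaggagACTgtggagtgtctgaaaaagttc
Relative to CAMK2D the stretch differs at 11 bases in CAMK2G and at 7 in CAMK2B. Over the whole coding sequence CAMK2D matched CAMK2G at 75.1% of aligned bases and 85.5% of aligned residues. None of the 5736 distinct 50-base stretches of the CAMK2D reference transcript occurred in CAMK2A, CAMK2B or CAMK2G transcripts. VSNL1 likewise shared 0 with HPCAL1, HPCA and NCALD, and CADPS2 shared 0 with CADPS. HPCAL4, another relative of VSNL1, was not compared, so stretches shared with it are not known.

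Of the 9 genes, 8 averaged 1 TPM or more across the 10 libraries and were fitted in limma together with all 13581 such genes. CAMK2D and VSNL1 were lower by at least 2-fold on the log2(TPM + 1) scale and none was higher by as much. Over all fitted genes 0.766% were at least 2-fold lower and 0.331% at least 2-fold higher, and 0.486% were past 2-fold in either direction with an adjusted p-value under 0.05 as well. The groups did not overlap for CAMK2D, VSNL1 and CADPS2, all lower in HCT116-CD276KO, and overlapped for the other 5 fitted genes. Lower without overlap held for 6.19% of all fitted genes, higher without overlap for 1.42%, and either for 7.61%. The members were chosen with this contrast known, and nothing is read from these counts. The median log2 fold change of the 8 was -0.09, as was that of all fitted genes.

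**Figure D1:**
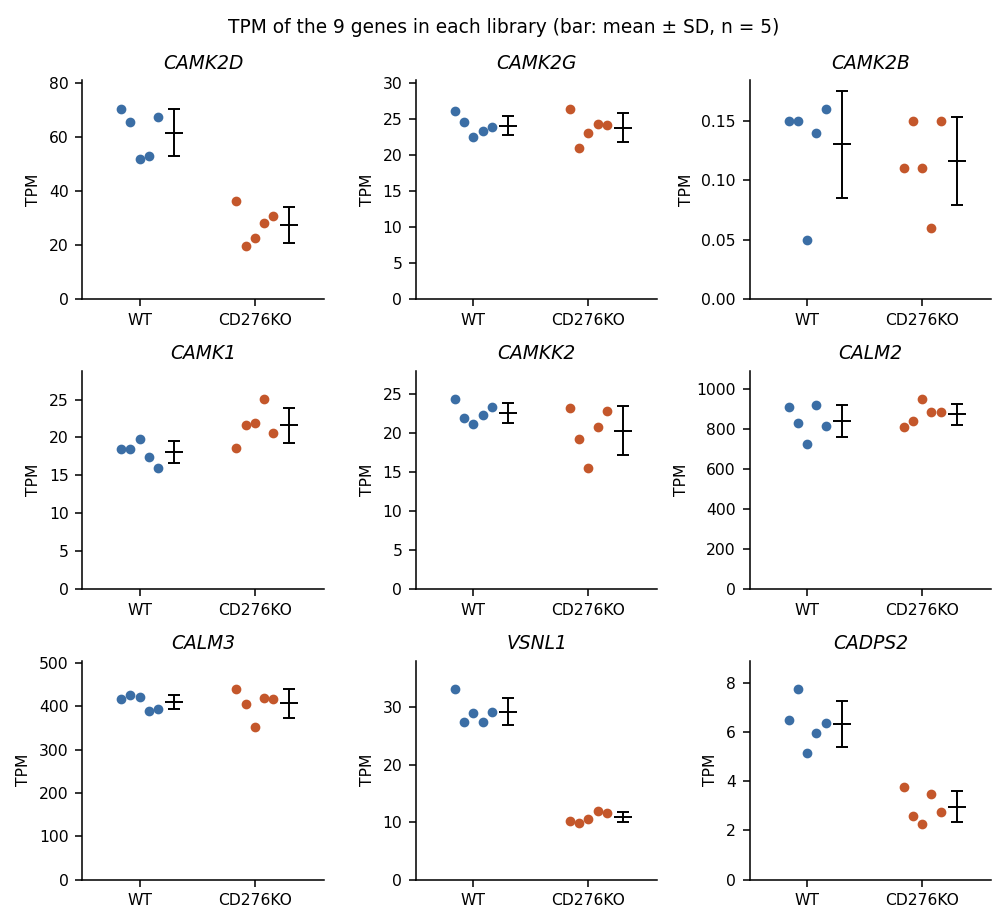
TPM of each of the 9 genes in the 5 HCT116-WT and 5 HCT116-CD276KO libraries (points, in replicate order), with the mean and SD of each group beside them; every vertical axis starts at 0. The groups stand apart for CAMK2D, VSNL1 and CADPS2, and overlap in the other panels.

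CAMK2D (ENSG00000145349) codes for the delta subunit of kinase II and lies on the minus strand of hg38 at chr4:113418054-113761927. It stood at 70.55, 65.7, 51.76, 52.92 and 67.63 TPM in HCT116-WT replicates 1 to 5. The HCT116-CD276KO replicates 1 to 5 held 36.22, 19.58, 22.73, 28.25 and 30.83 TPM. Every knockout library lay under every HCT116-WT library, the nearest values being 36.22 and 51.76 TPM. The means were 61.7 ± 8.74 TPM and 27.5 ± 6.58 TPM (SD, n = 5 each), a knockout mean at 44.6% of that in HCT116-WT, with a log2 fold change of -1.16 (SE 0.16). CAMK2D varied among knockout libraries by 1.85-fold from lowest to highest, the widest such range of the 8 fitted members.

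The spread of CAMK2D ran with a property of the libraries. Each library's deviations from the gene means were correlated with transcript length over genes, with Spearman coefficients between -0.48 and 0.39. Genes are not independent replicates, and the coefficients are descriptions. They were -0.48 and -0.44 in HCT116-CD276KO replicates 2 and 3, the libraries with the least CAMK2D, and 0.25 and 0.29 in replicates 1 and 5, those with the most. The longest annotated transcript of CAMK2D has 7404 bases. Once each library's trend with length and GC content had been removed, CAMK2D lay between 5.7 and 5.96 on the log2(TPM + 1) scale in HCT116-WT and between 4.75 and 5.12 in HCT116-CD276KO. The log2 fold change was then -0.98 (SE 0.07), just short of 2-fold, and the groups still did not overlap.

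CAMK2G (ENSG00000148660, chromosome 10), the gene of the gamma subunit, overlapped between the groups. Its HCT116-WT values were 26.11, 24.58, 22.57, 23.38 and 23.99 TPM, and its HCT116-CD276KO values 26.46, 21.07, 23.07, 24.4 and 24.18 TPM. The highest and the lowest of the 10 values both came from knockout libraries. The log2 fold change was -0.02 (SE 0.07), and it turned to 0.09 (SE 0.06) without the length and GC trend, 0.08 with median-of-ratios scaling and 0.10 with quantile normalization. CAMK2B, the gene of the beta subunit (ENSG00000058404, chromosome 7), stayed between 0.05 and 0.16 TPM in all 10 libraries and was left out of the fit; it overlaps YKT6, at means of 90.2 and 85.9 TPM. CAMK2A, the alpha gene that predominates in forebrain neurons, reached 0.01 TPM in 1 library and was listed at 0 in the other 9.

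Seen together, the CAMK2 genes differed in amount and in make-up. The summed TPM of CAMK2A, CAMK2B, CAMK2D and CAMK2G was 86 ± 9.95 in HCT116-WT and 51.5 ± 8.49 in HCT116-CD276KO (SD, n = 5 each). CAMK2D made up 69.2% to 73.7% of that sum in HCT116-WT and 48% to 57.7% in HCT116-CD276KO. CAMK2G accounted for 26.1% to 30.6% and 42.1% to 51.6%, respectively. The ratio of CAMK2D to CAMK2G within a library lay between 2.26 and 2.82 in HCT116-WT and between 0.929 and 1.37 in HCT116-CD276KO. In 2 knockout libraries, replicates 2 and 3, the ratio was under 1, so that CAMK2G exceeded CAMK2D there.

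**Figure D2:**
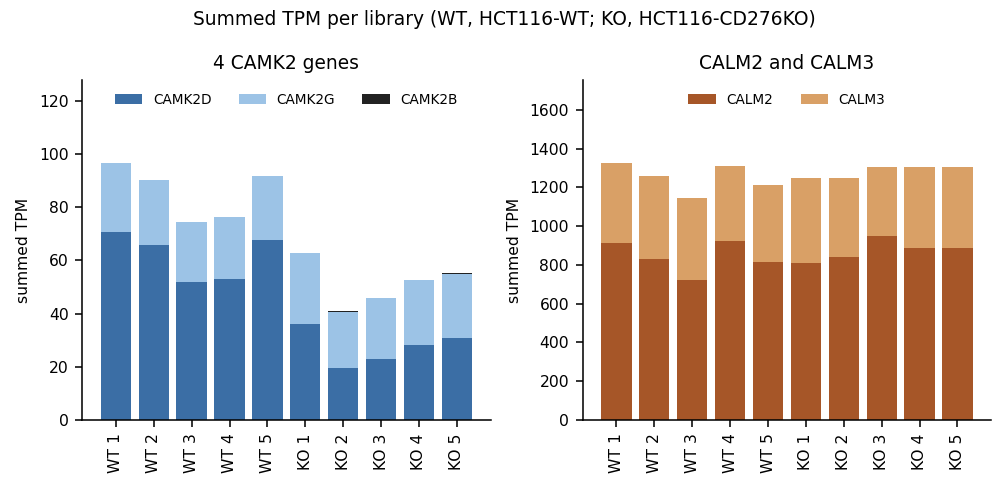
Summed TPM of the 4 CAMK2 genes (left) and of CALM2 and CALM3 (right) in each library, stacked by gene on axes that start at 0; CAMK2A, at no more than 0.01 TPM, is not drawn. The CAMK2 sum lies between 40.8 and 62.8 TPM in the knockout libraries and between 74.4 and 96.8 TPM in HCT116-WT, while the sums of CALM2 and CALM3 overlap.

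CAMK1 (ENSG00000134072, chromosome 3) codes for calmodulin-dependent kinase I. The HCT116-WT replicates 1 to 5 gave 18.52, 18.5, 19.84, 17.41 and 15.98 TPM. The knockout replicates 1 to 5 gave 18.64, 21.71, 21.91, 25.06 and 20.65 TPM. All knockout libraries but replicate 1 were above every HCT116-WT library, and the log2 fold change was 0.24 (SE 0.09). The gene overlaps OGG1 (log2 fold change 0.04, limma adjusted p-value 0.797); the libraries keep strand, but the sources do not say whether the counting used it. Its longest transcript has 1487 bases, the shortest among the members, and without the length and GC trend the value was 0.26 (SE 0.08).

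CAMKK2 (ENSG00000110931, chromosome 12), the kinase upstream of CAMK1, overlapped between the groups. It ranged from 21.08 to 24.33 TPM in HCT116-WT and from 15.46 to 23.15 TPM in HCT116-CD276KO. The lowest of the 10 values was that of knockout replicate 3. Its log2 fold change was -0.16 (SE 0.10), and 0.00 (SE 0.06) once the length and GC trend was removed.

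The calmodulin genes were among the most abundant transcripts, with CALM2 (ENSG00000143933, chromosome 2) at rank 173 and CALM3 (ENSG00000160014, chromosome 19) at rank 341 of the 13581 genes by mean TPM. CALM2 stood at 911.26, 832.02, 724.44, 920.77 and 816.75 TPM in HCT116-WT and at 809.7, 842.55, 951.6, 885.1 and 886.6 TPM in HCT116-CD276KO. The groups overlapped broadly. CALM3 lay between 389.84 and 426.12 TPM in HCT116-WT and between 351.84 and 438.94 TPM in HCT116-CD276KO. Their log2 fold changes were 0.06 (SE 0.07) and -0.01 (SE 0.06), the latter turning to 0.08 after median-of-ratios scaling and 0.06 after removal of the length and GC trend. For CALM2 that trend was read at 4502 bases, its longest annotated transcript, while its reference transcript has 1210 bases.

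As their products are identical, CALM2 and CALM3 can be added. The summed TPM was 1251 ± 74.1 in HCT116-WT and 1282 ± 30 in HCT116-CD276KO (SD, n = 5 each), the second being 102% of the first. CALM2 contributed 63.2% to 70.3% of the sum in HCT116-WT and 64.9% to 73% in HCT116-CD276KO. The sum was 13.2 to 17.2 times the summed CAMK2 TPM in HCT116-WT libraries and 19.9 to 30.6 times in knockout libraries. These ratios did not overlap, while the sums of CALM2 and CALM3 did.

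VSNL1 (ENSG00000163032) lies at chr2:17539126-17657018 on the plus strand. The HCT116-WT replicates 1 to 5 held 33.07, 27.4, 29, 27.32 and 29.07 TPM. In HCT116-CD276KO replicates 1 to 5 the values were 10.23, 9.84, 10.55, 11.95 and 11.6 TPM. The highest knockout library stood well below the lowest HCT116-WT library, and within each group the highest was 1.21 times the lowest. From 29.2 ± 2.33 TPM to 10.8 ± 0.904 TPM (SD, n = 5 each), the knockout mean was 37.1% of that in HCT116-WT. In log2 the difference was -1.35 (SE 0.08), the largest in size among the members, and -1.29 (SE 0.07) once the length and GC trend was removed. The TPM of 7 neuronal calcium sensor genes, VSNL1, NCS1, HPCAL1, HPCAL4, NCALD, HPCA and RCVRN, were summed. VSNL1 made up 14.1% to 18.4% of that sum in HCT116-WT and 5.53% to 7.38% in HCT116-CD276KO.

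CADPS2 (ENSG00000081803) lies on the minus strand at chr7:122318411-122886759 and was the least abundant of the fitted members. It gave 6.48, 7.74, 5.17, 5.97 and 6.38 TPM in HCT116-WT. In HCT116-CD276KO it gave 3.75, 2.58, 2.26, 3.48 and 2.74 TPM. The groups stood apart, by 3.75 against 5.17 TPM at their nearest. The means of 6.35 ± 0.934 and 2.96 ± 0.628 TPM (SD, n = 5 each) gave a log2 ratio of -1.10, and the log2 fold change on the log2(TPM + 1) scale, which understates changes of low values, was -0.90 (SE 0.13). Knockout replicates 2, 3 and 5 held the least CADPS2. Without the length and GC trend the value was -0.72 (SE 0.09) and the groups did not overlap. CADPS, the paralogue found in neurons and endocrine cells, was at 0.02 TPM or less in every library.

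**Figure D3:**
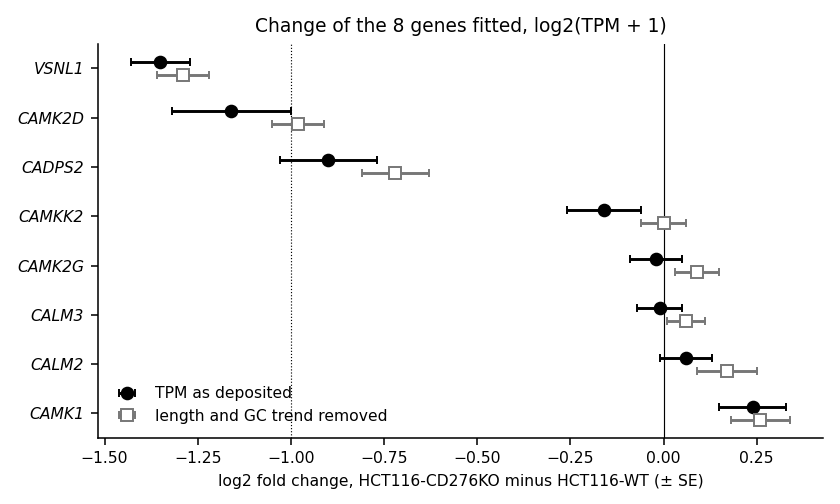
Log2 fold changes with SEs of the 8 fitted genes on the log2(TPM + 1) scale, from the TPM as deposited (filled) and after removal of each library's trend with transcript length and GC content (open); the dotted line marks 2-fold. VSNL1, CAMK2D and CADPS2 lie between -1.35 and -0.72 on both scales, and the other 5 between -0.16 and 0.26.

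Neighbouring genes were read around the 3 lower members. Of the 5 nearest fitted genes on each side of CAMK2D, none had an adjusted p-value under 0.05 in limma, and their log2 fold changes ran from -0.41 to 0.20. ANK2, 33.8 kb away, stood at -0.08 (limma adjusted p-value 0.749). Around VSNL1 the 10 neighbours had a median of -0.27, and the nearest, SMC6 at 6.8 kb, a log2 fold change of -0.40 (limma adjusted p-value 0.0544). The neighbour of VSNL1 that passed was TRIB2, 4796.4 kb away, at -0.85 (limma adjusted p-value 0.000451). Around CADPS2 the median was -0.13 and the range -0.96 to 0.05, the lowest being the small nuclear RNA pseudogene RNU6-517P (means of 5.31 and 0 TPM, limma adjusted p-value 0.49), and FAM3C, 922 kb away, passed with a log2 fold change of -0.45 (limma adjusted p-value 0.0446). No fitted gene overlapped CAMK2D, VSNL1 or CADPS2.

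The promoters of the lower members and of CAMK2G, whose groups overlapped, show how unlike these start regions are. Of the 9 genes 7 had an entry in the RefSeq promoter set of GRCh38.p14, which takes 250 bases before to 50 after a gene's start; CALM2 and CADPS2 had none. In capitals are matches on either strand to the GC box (GGGCGG), the CCAAT box (CCAAT), the TATA box (TATAAA), the AP-1 motif (TGANTCA) and the cyclic AMP response element (TGACGTCA), the site of CREB, a kinase target. CAMK2D, minus strand, chr4:113761689-113761988, is followed by CAMK2G, minus strand, chr10:73874506-73874805, and by both VSNL1 entries on the plus strand, chr2:17539722-17540021 and chr2:17540446-17540745.
CAMK2D: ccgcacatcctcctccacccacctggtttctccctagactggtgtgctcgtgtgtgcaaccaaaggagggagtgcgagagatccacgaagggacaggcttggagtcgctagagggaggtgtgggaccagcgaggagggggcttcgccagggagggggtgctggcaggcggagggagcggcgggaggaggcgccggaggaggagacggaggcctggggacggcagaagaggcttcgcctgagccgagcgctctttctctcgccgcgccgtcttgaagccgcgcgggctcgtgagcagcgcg
CAMK2G: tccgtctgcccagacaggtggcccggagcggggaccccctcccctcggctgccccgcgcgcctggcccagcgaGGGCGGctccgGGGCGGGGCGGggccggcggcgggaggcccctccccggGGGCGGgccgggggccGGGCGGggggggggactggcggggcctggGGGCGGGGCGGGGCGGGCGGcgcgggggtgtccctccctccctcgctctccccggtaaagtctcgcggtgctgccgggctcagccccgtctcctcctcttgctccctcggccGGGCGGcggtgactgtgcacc
VSNL1, first entry: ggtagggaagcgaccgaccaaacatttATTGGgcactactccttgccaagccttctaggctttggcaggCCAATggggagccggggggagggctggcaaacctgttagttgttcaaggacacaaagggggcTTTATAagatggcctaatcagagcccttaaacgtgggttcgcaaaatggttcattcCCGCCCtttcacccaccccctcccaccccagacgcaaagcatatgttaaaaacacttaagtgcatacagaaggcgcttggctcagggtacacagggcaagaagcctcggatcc
VSNL1, second entry: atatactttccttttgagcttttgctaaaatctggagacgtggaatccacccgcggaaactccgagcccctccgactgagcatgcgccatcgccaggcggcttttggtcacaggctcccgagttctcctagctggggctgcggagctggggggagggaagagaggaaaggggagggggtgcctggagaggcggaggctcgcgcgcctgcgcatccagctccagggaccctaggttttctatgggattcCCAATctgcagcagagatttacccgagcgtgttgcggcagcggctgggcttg
The CAMK2D window held none of the 5 motifs, whereas that of CAMK2G held 10 GC box matches, some of them overlapping. The first VSNL1 window held 1 GC box, 2 CCAAT boxes and 1 TATA box, and the second 1 CCAAT box. The CRE was in none of the members' windows. Over all 35116 promoters the share with a match was 45% for the GC box, 34.6% for the CCAAT box, 11.5% for the TATA box, 7.71% for AP-1 and 1.85% for the CRE. Which VSNL1 start these cells use is not shown by TPM per gene.

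As genes most like them, those with the smallest root mean square difference from the member's centred log2(TPM + 1) profile over the 10 libraries were taken. For CAMK2D these were SEMA3C (0.084), SEMA3A (0.109) and WWC2 (0.11), against a median of 0.597 over all fitted genes. For VSNL1 they were KLF4 (0.101), HNF4A (0.12) and TIMM17B (0.129), with a median of 0.659. CADPS2 was nearest to INTS8 (0.085), ABCC2 (0.134) and PLEKHA2 (0.144), with a median of 0.463. All 9 of these genes were lower in HCT116-CD276KO, with log2 fold changes from -1.44 to -0.73, and the profiles share the contrast by which the members are described.

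To place the 9 genes in their pathway, 143 other genes of calcium signalling in 7 lists were tested in the same limma fit, of which 107 reached a mean of 1 TPM. At an adjusted p-value under 0.05 in limma 8 of the 107 were called, or 7.48%, against 4.87% of all fitted genes. The lists were chosen with earlier results of these data known, so these shares are given as a description. Of the 8, 6 fell (4.09% of all fitted genes fell) and 2 rose (0.781% of all rose). After the length and GC correction 17 were called, 8 lower and 9 higher, and leaving out 1 library gave between 3, without HCT116-WT replicate 5, and 14, without HCT116-CD276KO replicate 1. Over all genes this correction moved the split from 556 lower and 106 higher to 665 lower and 559 higher, and quantile normalization gave 385 lower and 253 higher. For the 107 genes the median was -0.14 in log2, beside -0.09 over all.

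**Figure D4:**
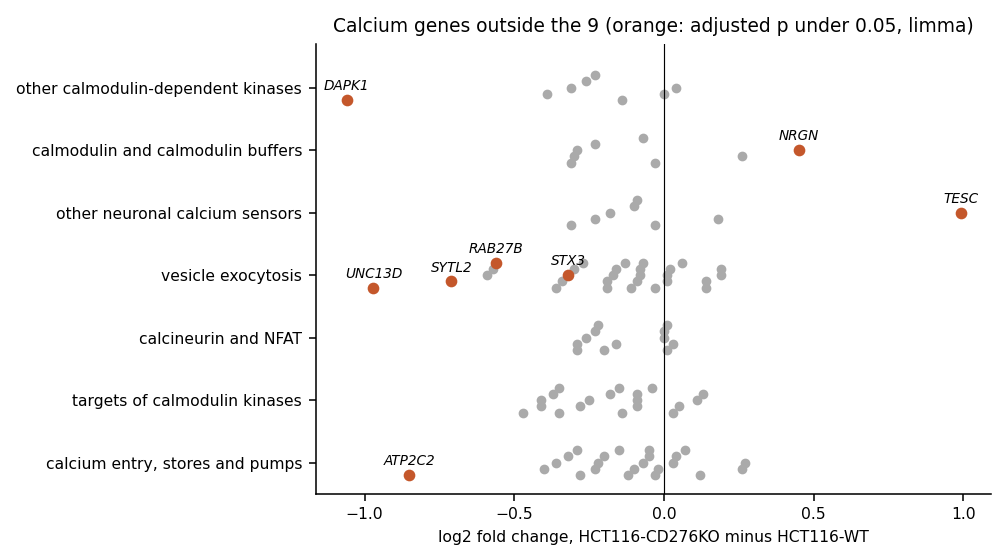
Log2 fold changes on the log2(TPM + 1) scale of the 107 fitted calcium genes outside the 9, by list (points spread vertically for legibility); orange points passed limma at an adjusted p-value under 0.05 and carry their symbol. DAPK1 at -1.06 and TESC at 0.99 lie at the extremes, and the calcineurin and kinase target lists hold no orange point.

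Among 8 other calmodulin-dependent kinases tested, DAPK1 fell. DAPK1, a calmodulin-regulated kinase linked to cell death, stood between 2.65 and 3.93 TPM in HCT116-WT and between 0.58 and 1.63 TPM in HCT116-CD276KO, without overlap. Its log2 fold change was -1.06 (SE 0.16, limma adjusted p-value 0.00343), or -1.59 with a pseudocount of 0.1, and it was past the threshold in all 17 alternatives that could be fitted for it. CASK, a membrane scaffold with a kinase-like domain, and EEF2K, the kinase of elongation factor 2, were the most abundant of this list, with log2 fold changes of -0.39 (limma adjusted p-value 0.0976) and -0.23 (limma adjusted p-value 0.27).

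In the list of other neuronal calcium sensors and their kin, TESC rose among 8 tested. TESC codes for tescalcin, an EF-hand protein that binds the sodium-proton exchanger NHE1. It ranged from 16.8 to 21.34 TPM in HCT116-WT and from 34.12 to 44.19 TPM in HCT116-CD276KO, every knockout library being above every HCT116-WT library. The means were 18.8 ± 2.18 and 38.2 ± 3.94 TPM (SD, n = 5 each), in log2 a rise of 0.99 (SE 0.09, limma adjusted p-value 7.45e-05), and it passed in all 18 alternatives. HPCAL1, a relative of VSNL1 and the most abundant gene of the list, had a log2 fold change of 0.18 (limma adjusted p-value 0.26) and passed in 1 alternative, after the length and GC correction (0.31, adjusted p-value 0.00647), and CHP1, a calcineurin-like partner of the exchanger, a log2 fold change of -0.23 (limma adjusted p-value 0.232). Of the 20 genes of the list 12 were not fitted.

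Among 8 tested genes of calmodulin homologues and buffers NRGN rose and the other 7 did not pass. NRGN codes for neurogranin, which holds calmodulin while calcium is low. Its range was 22.25 to 29.1 TPM in HCT116-WT and 29.08 to 40.28 TPM in HCT116-CD276KO, so the groups touched. The log2 fold change was 0.45 (SE 0.10, limma adjusted p-value 0.0226). The adjusted p-value lay between 0.000666 and 0.0702 over the alternatives, and among fits without 1 library was above 0.05 without HCT116-WT replicate 1 (0.0685), 2 (0.066) or 5 (0.0702), or without HCT116-CD276KO replicate 3 (0.0552) or 4 (0.0553). The most abundant of the list were IQGAP1, a cytoskeletal scaffold that binds calmodulin, with a log2 fold change of -0.30 (limma adjusted p-value 0.31), and CALD1, a calmodulin- and actin-binding protein, with -0.31 (limma adjusted p-value 0.0529). CALD1 lay between 62.02 and 68.76 TPM in HCT116-WT and between 45.74 and 60.06 TPM in HCT116-CD276KO. It passed after the length and GC correction (-0.16, adjusted p-value 0.0285) and without HCT116-CD276KO replicate 1 (0.0301) or 5 (0.0411). CALML4, also of this list, is named after its values were seen. Its range was 13.24 to 16.27 TPM in HCT116-WT and 16.86 to 19 TPM in HCT116-CD276KO (log2 fold change 0.26, limma adjusted p-value 0.0761). CALML4 passed, as higher, after the length and GC correction (0.38, adjusted p-value 0.0164) and with quantile normalization (0.38, adjusted p-value 0.0265).

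The vesicle list, in which CADPS2 has its place by function, held 29 tested genes. With the TPM as deposited 4 of them fell, or 13.8%, and none rose. Over all fitted genes 4.09% fell and 0.781% rose. VAMP2, not called there (log2 fold change 0.19, limma adjusted p-value 0.146), was called higher with quantile normalization (0.32, adjusted p-value 0.00661). The length and GC correction also called VAMP2 higher (0.23, adjusted p-value 0.0375) and SYT1 lower (-0.43, adjusted p-value 0.049). VAMP2 and SYT1 are named after their values were seen. SYTL2, a synaptotagmin-like partner of RAB27 proteins, had a log2 fold change of -0.71 (SE 0.14, limma adjusted p-value 0.0132) and passed in all 17 alternatives that could be fitted. RAB27B, a small GTPase of secretory vesicles, stood at 1.67 to 2.31 TPM in HCT116-WT and 0.72 to 1.4 TPM in HCT116-CD276KO, a log2 fold change of -0.56 (limma adjusted p-value 0.0226) that was -0.90 with a pseudocount of 0.1. UNC13D, a priming factor like CADPS2, lay at -0.97 (limma adjusted p-value 0.0179), with HCT116-WT replicate 5 at 7.46 TPM and the other 4 between 4.69 and 5.15 TPM, and with HCT116-CD276KO replicate 2 at 4.22 TPM and the other 4 between 1.44 and 2.27 TPM. STX3, an apical fusion protein, was at -0.32 (limma adjusted p-value 0.0323). Calls lost when 1 library was left out were those of RAB27B without HCT116-WT replicate 1, 2 or 5 or HCT116-CD276KO replicate 3 (adjusted p-value 0.0667, 0.0598, 0.0641 and 0.05) and of UNC13D without HCT116-WT replicate 5 (0.0506) or HCT116-CD276KO replicate 3 (0.0513). The UNC13D call was also lost in the fit of all genes above 0 TPM (0.0548). STX3 was not past the threshold after the length and GC correction (log2 fold change -0.14, adjusted p-value 0.216), median-of-ratios scaling (0.0602) or quantile normalization (0.102), nor without HCT116-WT replicate 1, 2, 4 or 5 or HCT116-CD276KO replicate 2 or 3 (adjusted p-value 0.066 to 0.101). VAMP3 and VAMP8, the most abundant genes of the list, had log2 fold changes of -0.08 (adjusted p-value 0.501) and 0.06 (limma adjusted p-value 0.614), and VAMP3 turned to 0.02 after median-of-ratios scaling.

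Calcium entry, store and pump genes held 23 tested, of which ATP2C2, a calcium pump of the secretory pathway, fell from 5.42 ± 0.455 to 2.69 ± 1.09 TPM (SD, n = 5 each). Its log2 fold change was -0.85 (limma adjusted p-value 0.0271), and the call was lost without HCT116-WT replicate 1, 2 or 5 (adjusted p-value 0.0747, 0.0699 and 0.0747), with quantile normalization (0.0571) and in the fit of all genes above 0 TPM (0.0772). After the length and GC correction limma called 4 genes of this list, ATP2C2 lower (-0.75, adjusted p-value 0.0397) and the others higher. Those higher were STIM2 (0.42, adjusted p-value 0.00104), ITPR1 (0.36, 0.0335) and TRPM7 (0.29, 0.0397), named after their values were seen. STIM2 was also called higher with quantile normalization (0.39, adjusted p-value 0.02). ATP2A2 and ATP2C1, the most abundant pumps, stood at -0.23 (adjusted p-value 0.33) and -0.29 (limma adjusted p-value 0.215). Of 12 calcineurin and NFAT genes and 19 targets of calmodulin kinases tested, 0 were called by limma. At an unadjusted p under 0.05 there was 1 gene in the first list, NFATC1, and there were 7 in the second, all with lower values; over all fitted genes 21.9% were under that limit and 17.6% were under it and lower. After the length and GC correction limma called 1 gene in each list, RCAN3 at 0.20 and MEF2D at -0.30; these and NFATC1 are named after their values were seen. Of the most abundant genes of the lists, the calcineurin subunits PPP3CA and PPP3R1 had log2 fold changes of -0.23 (adjusted p-value 0.413) and 0.00 (limma adjusted p-value 1). EEF2, elongation factor 2, was at -0.15 (limma adjusted p-value 0.282), and PRKAG1, a subunit of AMPK, which CAMKK2 can activate, at 0.11 (limma adjusted p-value 0.371).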

How the data were processed

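PolyA RNA of 5 HCT116-WT and 5 HCT116-CD276KO cultures was sequenced in strand-specific libraries with single reads of 50 bases. The authors mapped reads to GRCh38 with STAR 2.5.2b, quantified genes with RSEM 1.3.0 and featureCounts 1.5.1 and deposited TPM, scaled to 1000000 per library; the program behind the TPM is not given in the sources used here. Read counts were not used here, so that depth per library, counting error and limits for values of 0 are unknown. Groups and replicate numbers came from the sample titles, and symbols, found for 56947 of the 58050 identifiers, from a reference name table. All knockout cultures come from the same clone, and p-values measure the spread between cultures.

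TPM were transformed as log2(TPM + 1). Genes averaging 1 TPM or more were fitted in limma 3.58.1 (R 4.3.3) with a variance trend, and p-values were Benjamini-Hochberg adjusted over all 13581 genes, with a threshold of 0.05. The fit was tested on simulated data. Members and lists were chosen with earlier results of these data known, and members get no p-value. Besides the 9 members and CD276, genes were named by rule: per list up to 4 with the smallest adjusted p-value under 0.05 and the 2 with the highest mean TPM, the 3 genes most like CAMK2D, VSNL1 and CADPS2, and overlapping or neighbouring genes.

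Alternatives were a pseudocount of 0.1, other filters on low values (all genes above 0 TPM, or a mean of at least 5 TPM), median-of-ratios scaling, quantile normalization, robust empirical Bayes, a block for replicate number, removal of each library's trend with transcript length and GC content (loess, span 0.3, for the 13472 genes with both values), log2 ratios of mean TPM, and leaving out each library. Coding sequences came from GENCODE 44 on hg38 and were aligned with Biopython 1.88. Of the calcium lists, 1 gene is not reported here.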

Additional observations from a re-analysis of the deposited data

Results flagged for a closer look

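Among the 31 named list genes and members checked for a library far from the other 4 of its group, 62 groups were examined and 3 stood out; by chance about 1 group in 20 would, or 3.1 of 62. CAMK2B was at 0.05 TPM in HCT116-WT replicate 3, against 0.14 to 0.16 TPM in the other HCT116-WT libraries, a gap of 0.818 of the group's range at a level under 1 TPM. UNC13D was at 7.46 TPM in HCT116-WT replicate 5, against 4.69 to 5.15 TPM in the others (gap 0.834), and its call was lost without that library (log2 fold change -0.87, limma adjusted p-value 0.0506). VAMP8 was at 81.1 TPM in HCT116-CD276KO replicate 3, against 64.62 to 68.74 TPM in the others (gap 0.75). The cause was not tested for any of them.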

How the results depend on the processing

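CAMK2D, VSNL1 and CADPS2 kept lower values in HCT116-CD276KO in every alternative in which they were fitted, with log2 fold changes of -1.26 to -0.98 for CAMK2D, -1.43 to -1.22 for VSNL1 and -1.10 to -0.72 for CADPS2. The number of members at least 2-fold different, 2, was 1 after removal of the length and GC trend, 3 with a pseudocount of 0.1 or from log2 ratios of mean TPM, and 2 in each fit without 1 library. CADPS2 was dropped by the filter at 5 TPM, and CAMK2B was fitted only with all genes above 0 TPM.

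For the 107 calcium genes the 8 calls became 3 with the filter at 5 TPM (which also tests fewer genes, 82), and 17 without the length and GC trend. The calls lost with that filter were of genes it drops, DAPK1, UNC13D, SYTL2, RAB27B and ATP2C2, which averaged 1.558 to 4.055 TPM and were all called lower. TESC, NRGN and STX3 stayed past the threshold. Leaving out 1 library gave 3 to 14 calls: 4 without HCT116-WT replicate 1 or 2, 3 without HCT116-WT replicate 5, 4 without HCT116-CD276KO replicate 3 and 14 without HCT116-CD276KO replicate 1. Over all genes 662 calls became 1224 without the length and GC trend and 343 to 857 with 1 library left out (345, 376, 421 and 343 without HCT116-WT replicates 1, 2, 4 and 5, and 407 and 375 without HCT116-CD276KO replicates 3 and 4). The 106 higher of 662 calls became 191 of 580 with median-of-ratios scaling, 253 of 638 with quantile normalization and 559 of 1224 without the trend; the median over all genes, in log2, moved from -0.09 to 0.00, 0.01 and 0.01. The 66 genes past both thresholds became 112 with a pseudocount of 0.1, 40 with the filter at 5 TPM and 61 to 74 with 1 library left out.

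Replicate numbers of the groups mark no shared culture in the labels, and deviations of same-numbered libraries correlated at -0.18 to 0.12. With the replicate block 378 genes were called, 4 of them calcium genes, and the calls of NRGN (adjusted p-value 0.0506), RAB27B (0.0702), STX3 (0.0586) and ATP2C2 (0.057) in limma were lost; 1 of the 10 libraries correlated best with its own number.

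Direction turned, with no call involved, for the members CAMK2G (from -0.02 to 0.08, 0.10 and 0.09 with median-of-ratios scaling, quantile normalization and without the length and GC trend, and to 0.01 and 0.02 without HCT116-WT replicate 1 and HCT116-CD276KO replicate 2) and CALM3 (from -0.01 to 0.08 with median-of-ratios scaling, 0.06 without the trend and 0.04 without HCT116-CD276KO replicate 3), and for VAMP3 (0.02 with median-of-ratios scaling) and PPP3R1 (-0.08 without HCT116-WT replicate 3, and -0.01, -0.01 and -0.03 without HCT116-CD276KO replicates 3, 4 and 5, within -0.08 to 0.04 over all libraries left out in turn). Of 391 values of named list genes 352 kept direction and side of the threshold. The cause was not tested.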

Other observations

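Among the 36 calcium genes under the 1 TPM filter, 2 did not overlap between the groups and were lower in HCT116-CD276KO. They are named after their values were seen. Lower without overlap held for 6.19% of all fitted genes, and the share among all genes under the filter was not counted. Nothing is read from the count of 2. PRKAA2, the gene of a catalytic subunit of AMPK, lay between 0.48 and 0.72 TPM in HCT116-WT and between 0.01 and 0.04 TPM in HCT116-CD276KO, a log2 ratio of means of -4.79, with a log2 fold change on the log2(TPM + 1) scale of -0.65 (SE 0.04, limma adjusted p-value 3.13e-05 fitted on all 30818 genes above 0 TPM). NCALD, a calcium sensor related to VSNL1, lay between 0.4 and 0.67 TPM and between 0.08 and 0.34 TPM, a log2 ratio of means of -1.46, with a log2 fold change on the log2(TPM + 1) scale of -0.36 (SE 0.08, limma adjusted p-value 0.0559 in the same fit).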
